A study of Mus musculus with 2 samples.

Results

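Prefix models are transcript models whose introns are the first introns of a longer transcript and whose last exon lacks the splicing that follows there. The models described here were chosen by their class, their exons and their reads: the authors' tables had to list them as an incomplete splice match of the subtype Prefix, with at least 2 exons and at least 2 reads in 1 library. They numbered 768 in replicate 1 and 655 in replicate 2, and matched by intron chain they gave 1131 distinct chains of 126113 spliced chains seen in either library. The longer transcript is called the parent below. Model ends were read from the exon coordinates deposited with each library. Of the 1131 chains, 1121 lay in 901 genes of the GENCODE M21 annotation, 96.9% of them in protein-coding genes, and 10 lay in unannotated genes.

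The reads came from long-read RNA sequencing, in which 1 read can span a transcript, of adrenal glands of 14-day-old male B6CASTF1/J mice, an F1 hybrid of the C57BL/6J and CAST/EiJ strains. There was 1 group with 2 libraries, labelled biological replicates 1 and 2. The libraries carry the same donor identifier and different biosample labels, and the labels name 3 males without stating how many entered each library, so the p-values and intervals below cover counting error only. No treatment, allele or second age was compared.

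A messenger RNA ends where its precursor is cleaved and a poly(A) tail is added, usually a short way after the hexamer AATAAA or ATTAAA. When a site inside an intron is used before that intron is spliced, the product keeps the first exons and ends early, while an RNA that keeps its last intron unspliced can still reach the gene's ordinary end. Priming on an A-rich stretch inside an RNA also yields copies that stop there. In the adrenal gland the cortex makes steroid hormones from cholesterol and the medulla makes catecholamines.

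Sequences at the ends of 3 leading models at annotated ends and of the 4 inside exons with the most reads are shown, as examples of the windows in which hexamers and A-rich stretches were counted. All were read from the GENCODE M21 transcript sequences (mm10, the GRCm38 assembly), 5′ to 3′ on the strand of the gene. For Son, whose end lies in a coding exon, 30 bases up to the end are in lower case and the 20 bases after it are in capitals. In replicate 1 the Son window covered chr16:91654652-91654701 (plus strand), and in replicate 2 it covered chr16:91654670-91654719. These 20 bases held 13 and 16 A.
Son, replicate 1: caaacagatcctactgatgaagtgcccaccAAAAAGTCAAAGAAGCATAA
Son, replicate 2: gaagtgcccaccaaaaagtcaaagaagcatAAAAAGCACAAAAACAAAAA

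The Sec62 model ended at the last base of its parent's exon 4, and the last 30 bases of that exon (chr3:30809997-30810026, plus strand) are shown with the longest run of A in capitals.
Sec62, both replicates: aaagatggtgaaaaggaagattccAAAAAg

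For the others, which end outside coding sequence, 30 bases before the end are shown with AATAAA and ATTAAA in capitals where they occur. The Cyp21a1 window (chr17:34801368-34801397, minus strand) and the Srsf2 window of replicate 1 (chr11:116849924-116849953, minus strand) stop 20 bases short of the end. The Agpat3 windows lay at chr10:78269798-78269827 in replicate 1 and chr10:78271563-78271592 in replicate 2 (minus strand). The Ccnl2 windows lay at chr4:155819531-155819560 and chr4:155818635-155818664 (plus strand), and the Suds3 window at chr5:117091680-117091709 (minus strand). Neither hexamer occurred in the 50 bases before the Suds3 end or the replicate 2 end of Ccnl2.
Cyp21a1, both replicates: ctggtgccttctgcccagtAATAAAtggtc
Srsf2, replicate 1: attgtttctgtagtttgATTAAAgtgtttt
Agpat3, replicate 1: gtattctATTAAActggagttacttgattc
Agpat3, replicate 2: ttcaatttttctATTAAAttAATAAAtctc
Ccnl2, replicate 1: aaagaaaatATTAAAgatgtagtcaatttt
Ccnl2, replicate 2: tctccaccgaaggctggctctagactggtg
Suds3, both replicates: aaaacaggataaacaatgtttattcactaa

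Prefix models were a small share of the spliced reads. Their 3413 reads were 0.416% (95% Wilson interval 0.403 to 0.431) of the 819521 spliced reads of replicate 1, and their 2844 reads were 0.355% (0.343 to 0.369) of the 800391 spliced reads of replicate 2, a mean of 0.386% ± 0.0432 (SD, n = 2). The intervals do not overlap. Suffix models, which lack exons at the other end, held 7.37% ± 0.882 (SD, n = 2) under the same limits of exons and reads. Most prefix models were sparse: the larger of both counts was 2 reads in 580 of 1131 chains (51.3%), 147 had 10 or more reads over both libraries and 11 had 50 or more. On either side of the read limit, 2699 and 2431 further prefix models had a single read in replicates 1 and 2, while 394 and 328 had exactly 2. Of the models with 1 read, 45.4% and 44.1% ended at an annotated transcript end, against 53.8% and 55.2% of those with 2.

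The same chain was often seen again in the other library. Reads in both libraries were found for 675 of 1131 prefix chains (59.7%), for 62.0% of suffix chains and for 87.4% of known spliced chains. Among chains whose larger count was 2, these shares were 39.8%, 42.4% and 53.2%. Of prefix chains with 5 or more reads, 211 of 225 (93.8%) recurred. The class recurred less often than the chain, since 577 of the 675 shared chains (85.5%) were prefix models in both tables, 57 were listed in the other table as new combinations of annotated splice sites and 27 as chains with a new splice site. These changes of class went with the parent: it was an annotated transcript for 931 chains and only an unannotated model of the same library for 200. Of the shared chains, 5 of 540 with an annotated parent and 93 of 135 with an unannotated parent had another class in the other table.

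Ending early was not a property of all prefix models. Of the 1121 in annotated genes, 844 (75.3%) ended more than 50 bases before the gene's most distal annotated end, with a median distance of 9259 bases, 267 (23.8%) ended within 50 bases of it and 10 ended past it. Models of the other truncated class reached that end more often: 66.3% and 65.6% of suffix models did in replicates 1 and 2, against 24.4% and 23.2% of prefix models. Since the class is defined by missing splicing at the 3′ side, this contrast is a description of the class. At the 5′ side, 1085 of 1121 prefix models (96.8%) started exactly at an annotated transcript start. Few other starts lay close to one, so deposited starts may carry the annotated coordinate, and the starts of single reads were not analysed. The share at an annotated start was 97.5% and 96.5% of prefix models in replicates 1 and 2. It was 97.1% and 96.6% for new combinations of annotated splice sites. For models with a new splice site it was 87.2% and 85.9%, and for suffix models 27.7% and 26.2%.

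Against an annotated parent, the ends fell into 3 arrangements, which were set after the data had been seen. Where several annotated transcripts matched, retained-intron transcripts included, a parent that placed the end within its exon was taken first. A parent that placed it within the next intron came second, and ties went to the parent with the fewest exons missing. The shares below, the exons missing and the stop codon counts depend on this choice. Of 931 chains, 372 (40.0%) ran through the parent's next intron without splicing it and ended past it, 327 (35.1%) ended inside that intron, and 232 (24.9%) ended within the exon before it. The shares were 40.6%, 37.2% and 22.3% of 651 models in replicate 1 and 41.5%, 30.4% and 28.2% of 550 models in replicate 2. Most of the first arrangement were models with an unspliced last intron: 335 of 372 crossed every intron that their parent still had, 317 crossed exactly 1, and 210 (56.5%) ended within 50 bases of the gene's most distal end. None of the other 559 did, which nearly follows from how they were set: their ends lie before the parent's next exon and so before the parent's own end. The plot of end classes shows that annotated ends are the largest group of the first arrangement and exons that of the third.

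**Figure D1:**
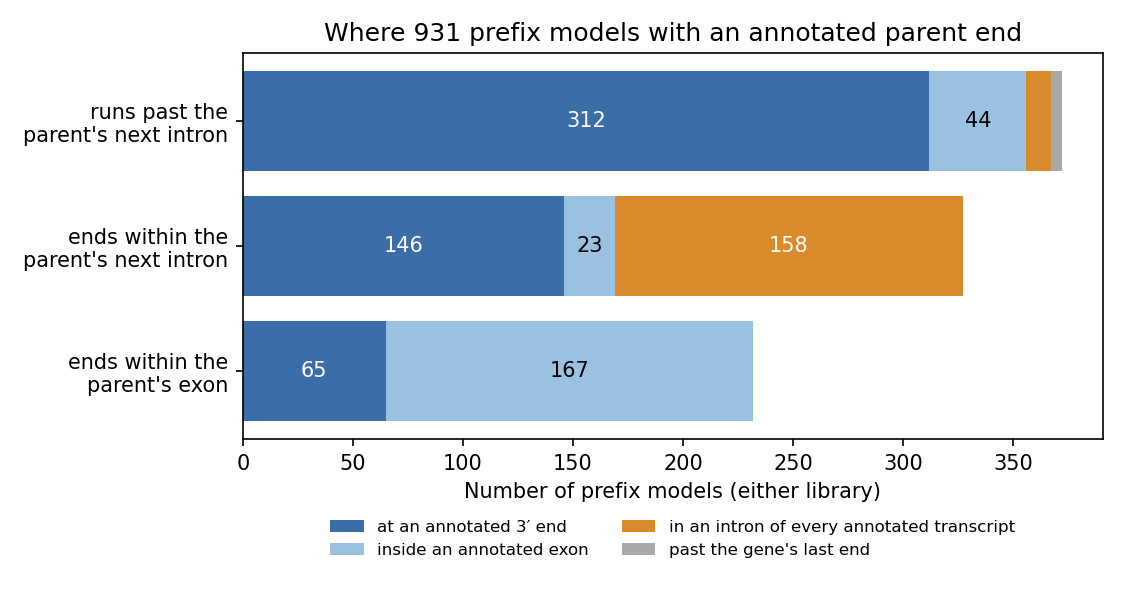
Number of prefix models of either library with an annotated parent (horizontal axis) by where the model ends against that parent (rows) and against all annotated transcripts of the gene (colours). Of models past the next intron 312 end at an annotated 3′ end, of models within the next intron 158 end in an intron of every annotated transcript and 146 at an annotated end, and of models within the exon 167 end inside an exon and 65 at an annotated end.

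Over all 1131 chains, 649 (57.4%) ended within 50 bases of an annotated transcript end, 271 (24.0%) inside another part of an annotated exon, 191 (16.9%) in an intron of every annotated transcript of the gene, and 10 past the gene. The distances were not spread evenly: 646 ends were exactly at an annotated position, 3 lay 1 to 50 bases from one and 0 lay 51 to 150 bases from one. Deposited ends near an annotated end therefore carry the annotated coordinate, and the ends of single reads were not analysed here. At annotated ends, the transcripts that end there were coding in 389 of 649 cases (59.9%), retained-intron transcripts without a coding one in 144 (22.2%) and targets of nonsense-mediated decay in 48 (7.40%).

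**Figure D2:**
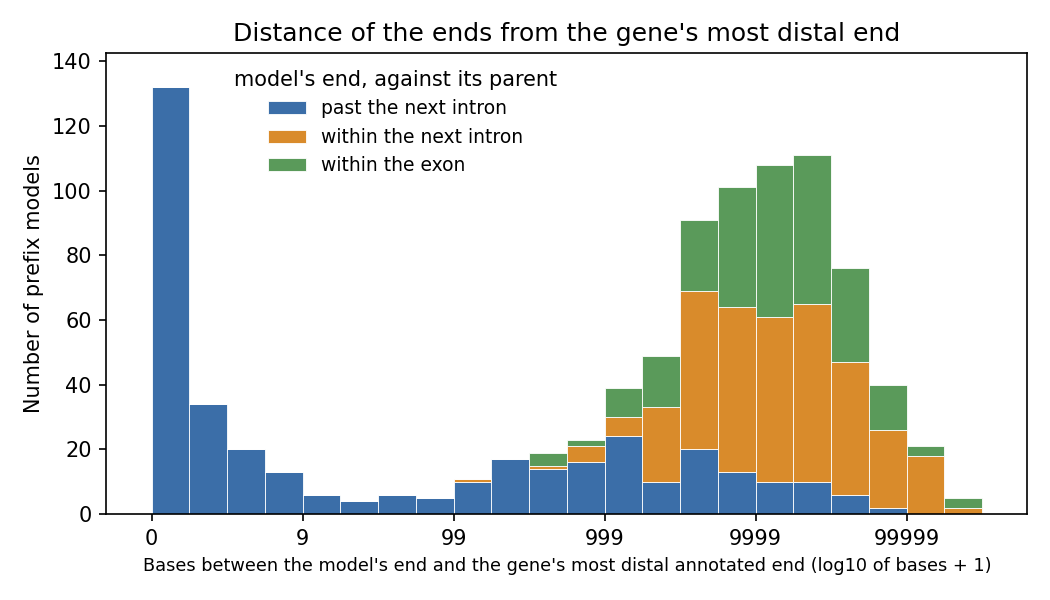
Distance in bases from the end of each of 931 prefix models with an annotated parent to the most distal annotated end of its gene, on a scale of log10 of bases + 1, stacked by arrangement. Ends past that position are drawn at 0. Models past the next intron pile up at or near 0, and the other 2 arrangements lie mostly beyond 1000 bases, with medians of 12990 bases within the intron and 12577 bases within the exon.

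The first crossed intron had a median of 502 bases (quartiles 202 and 1014), against 544 bases (205 and 1092) for the last introns and 662 bases (205 and 1639) for all introns of the same parents. The introns in which models ended were longer, with a median of 3289 bases, and the end lay a median of 769 bases past the exon. Of 322 first-arrangement models with a coding parent, 249 (77.3%) carried the parent's stop codon only after the unspliced intron, 35 (10.9%) already had it before that intron, and 38 ended before it. In the other 2 arrangements, 262 of 270 (97.0%) and 170 of 171 (99.4%) ended before the parent's stop codon.

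Models that ran past the next intron included the one with the most reads. The Suds3 model, from a gene for a subunit of a SIN3 histone deacetylase complex, had 11 exons, 105 reads in replicate 1 and 98 in replicate 2, and it ended at the gene's last annotated end. It made up 70.0% of the gene's spliced reads in both libraries. Its class depends on 27 and 28 reads that splice an 89-base intron: that chain is not in the annotation, and the same Suds3 chain was listed as new not in catalog in replicate 2. The Srsf2 model, from a gene for a serine- and arginine-rich splicing factor, had 43 and 18 reads, which is 11.9% and 7.38% of the gene's spliced reads, and crossed an intron of 1059 bases. The model of Mbd3, a subunit of the NuRD chromatin remodelling complex, had 31 and 23 reads and crossed 76 bases, and that of Plin5, a lipid droplet protein, had 30 and 14 reads and crossed 328 bases. AC149090.1, on an unplaced scaffold, had 38 and 24 reads and was 1 of 8 prefix models of that gene. An unspliced share was taken with only the model's own reads as unspliced. Spliced reads were added over the next introns of all matching parents of the model. By this count 79.5% and 77.8% were unspliced for Suds3 and 55.9% and 35.8% for AC149090.1. The unspliced share was lower for Srsf2 (12.8% and 8.14%), Mbd3 (22.6% and 18.3%) and Plin5 (14.9% and 7.61%).

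Models that ended inside the next intron included the one of Star, which carries cholesterol into mitochondria for steroid synthesis. The Star model had 6 of its parent's 7 exons and 58 and 45 reads, and it ended 540 bases into the last intron, of 889 bases, at 25812423 on chromosome 8 in replicate 1 and at 25812430 in replicate 2. No annotated exon covers these positions, which lay 7 bases apart. The next introns of the Star model's matching parents were spliced in 4294 and 3905 reads, added together, so the model's reads were 1.33% and 1.14% of those counted. The model of Lrp6, a Wnt co-receptor, stopped 878 bases into an intron of 21058 bases, at the end of the annotated retained-intron transcript Lrp6-205, and lacked 21 of 23 exons. With 11 and 19 reads it was 57.9% (36.3 to 76.9) and 70.4% (51.5 to 84.1) of the spliced reads of Lrp6.

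Other models that ended inside the next intron had only an unannotated parent, and the intron named is that parent's. The Agpat3 model, from a gene for an acyltransferase of phospholipid synthesis, had 57 and 53 reads, and its only parent spliced an intron of 24398 bases in 2 and 0 reads. It was a new combination of annotated splice sites in replicate 2. In replicate 1 the Agpat3 model ended inside an annotated exon, 620 bases before the gene's most distal annotated end. A Cyp21a1 model of 8 exons (23 and 26 reads) had a parent with an intron of 82000 bases, spliced in 1 and 0 reads, and a Cyp21a1 model of 10 exons (35 and 26 reads) had one whose next intron was spliced in 2 and 10 reads. Both Cyp21a1 models ended at the gene's most distal annotated end, the model of 8 exons in replicate 1. Cyp21a1, the steroid 21-hydroxylase, has a near-identical pseudogene copy, so the assignment of these reads is uncertain. The Aifm2 model (29 and 14 reads), from a gene for an oxidoreductase that reduces coenzyme Q, was listed as a new combination in replicate 1, and its parent's next intron was spliced in 257 and 233 reads. The Aifm2 model ended at the end of the annotated coding transcript Aifm2-203, 613 bases before the gene's most distal annotated end. These counts add the next introns of all matching parents of a model, so 1 read can count more than once. Over all 200 chains with an unannotated parent, the added count was at most 2 reads for 40 (20.0%). Its median was 22.5 reads, against a median of 82 reads for chains with annotated parents.

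Models that ended within an exon included several that were large parts of their gene. The Son model, from a gene for a nuclear speckle protein of splicing, had 3 of 5 exons and 73 and 105 reads, which is 81.1% (71.8 to 87.9) and 87.5% (80.4 to 92.3) of the spliced reads of Son. It ended inside the long coding exon, 5881 bases before its last base in replicate 1 and 18 bases further on in replicate 2, both before the A-rich stretches shown above. The Psmd1 model, from a gene for a regulatory subunit of the proteasome, had 44 and 31 reads and lacked 3 of 25 exons. The Sec62 model, from a gene of protein import into the endoplasmic reticulum, had 60 and 102 reads, lacked 4 of 8 exons and stopped at the last base of an exon. That position was common: 152 of 232 within-exon models (65.5%) ended exactly at the last base of the parent's exon. The Ccnl2 model (44 and 47 reads), from a gene for a cyclin linked to splicing, ended in an exon of the retained-intron transcript Ccnl2-205 at positions that differed by 896 bases.

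Other within-exon models were also leading forms of weakly covered genes. The Fam120aos model, from a long noncoding RNA gene named as antisense to Fam120a, had 21 of 22 and 24 of 24 spliced reads. It ended at the last base of its parent's exon in replicate 2, which set its arrangement, and 618 bases past that base in replicate 1. The files do not state how strand was set, so reads of the opposite gene cannot be told apart. The model of Vegfd, a growth factor of lymphatic vessels, had 16 of 24 and 17 of 28 spliced reads. The model of Kmt2e, a SET-domain chromatin protein, lacked 13 of 26 exons and had 11 of 21 and 12 of 20. The model of Eif5b, a GTPase of translation initiation, lacked 17 of 22 exons, ended at the last base of exon 5 and had 14 of 30 and 21 of 36. For each of these genes the intervals of both libraries overlap, as the plot of gene shares shows.

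**Figure D3:**
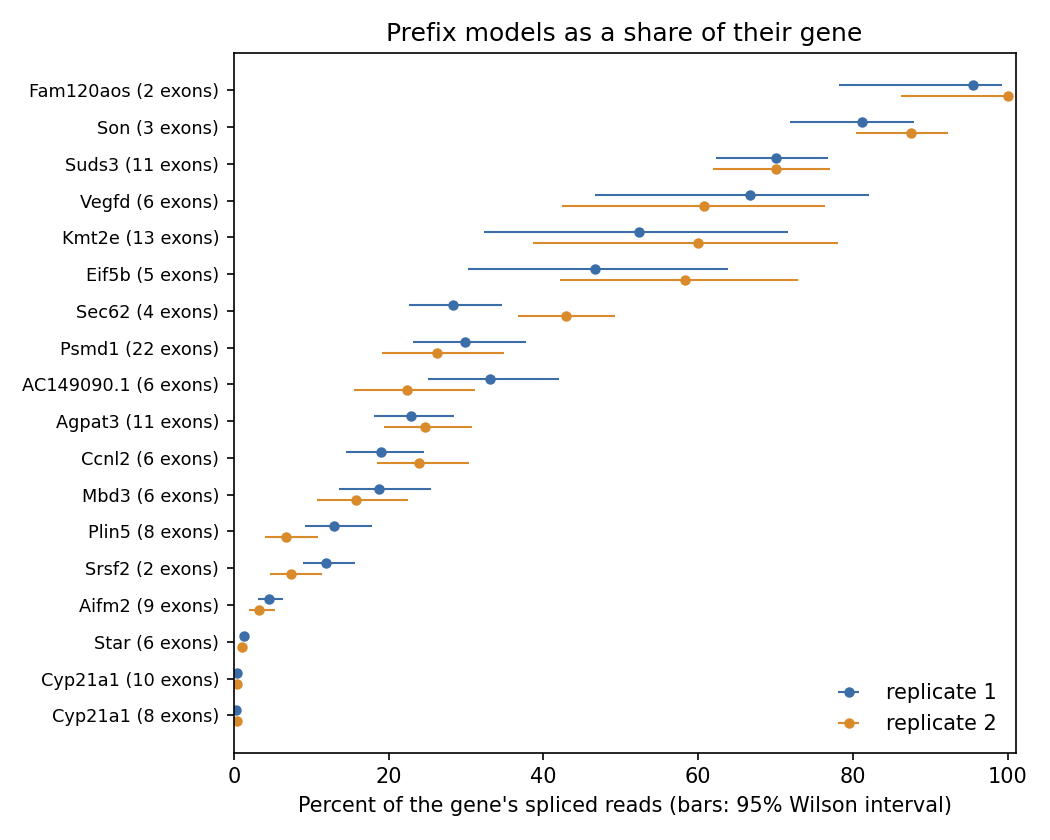
Prefix models with the most reads or the highest share of their gene (rows, with the number of exons in the model), as a percent of the gene's spliced reads in replicate 1 and replicate 2. Bars are 95% Wilson intervals. Fam120aos, Son and Suds3 lead with 70.0% or more in each library, and the models of Star and Cyp21a1 stay under 2%.

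Such large shares were the exception. Over the 808 prefix models of genes with 20 or more spliced reads in each library, the median share of the gene was 1.85% in replicate 1 (quartiles 0.335 and 4.44) and 1.61% in replicate 2 (0.158 and 4.76), and 70 models exceeded 10% in each. More than 50% was reached by 6 models in replicate 1 and 7 in replicate 2. Among members with 10 or more reads, the most exons were missing from the models of Dgkd, a diacylglycerol kinase (26 of 30, with 8 and 10 reads), and Mapk8ip3, a scaffold of JNK signalling (26 of 31, with 7 and 4 reads). The models of Lrp6 (21 of 23), Eif5b (17 of 22) and Kif5b, a kinesin heavy chain (15 of 26, with 5 and 8 reads), followed. Models past the next intron lacked a median of 1 exon, those within the intron 4 and those within the exon 3, and 262 of 931 (28.1%) lacked 5 or more.

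The sequence around the ends was counted by arrangement, an addition made after the data had been seen and given as counts without a test. Letters were read on the strand of the transcript only, and parents of either kind were counted. Among models at annotated ends, AATAAA or ATTAAA lay in the last 50 bases of 300 of 365 past the next intron (82.2%), 132 of 195 within the intron (67.7%) and 14 of 82 within the exon (17.1%). Over all annotated ends of the same genes the share was 49.0% of 2773 ends of coding transcripts and 21.4% of 1741 ends of retained-intron transcripts. The units differ: models were counted by chain, so an end used by several chains counts more than once, while these annotated ends were counted once per position. Ends inside exons and away from annotated ends had a hexamer in 45 of 223 cases (20.2%). A match is a string of letters, not a site shown to be used. Deposited ends near an annotated end carry the annotated coordinate, so the counts at annotated ends describe annotated positions, not the ends of reads.

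An A-rich stretch, set as 12 or more A or a run of 6 A in the 20 bases after the end, could be counted only where an annotated exon continues. At annotated ends inside a longer exon it followed 26 of 63 within-exon models (41.3%, 22 of 58 distinct positions), 6 of 29 within-intron models (20.7%) and 8 of 99 past the next intron (8.08%). Of all 20-base windows of the same exons, 2.33% were as rich. Ends inside exons and away from annotated ends had such a stretch in 13 of 121 cases (10.7%), against 2.22% of windows. Models that stopped at an exon's last base had it in the last 20 bases of that exon in 7 of 145 cases (4.83%), against 2.41% of 1744 exons of the same parents. The counts at annotated ends again describe annotated positions, not the ends of reads. Whether these stretches bear on the ends was not tested.

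**Figure D4:**
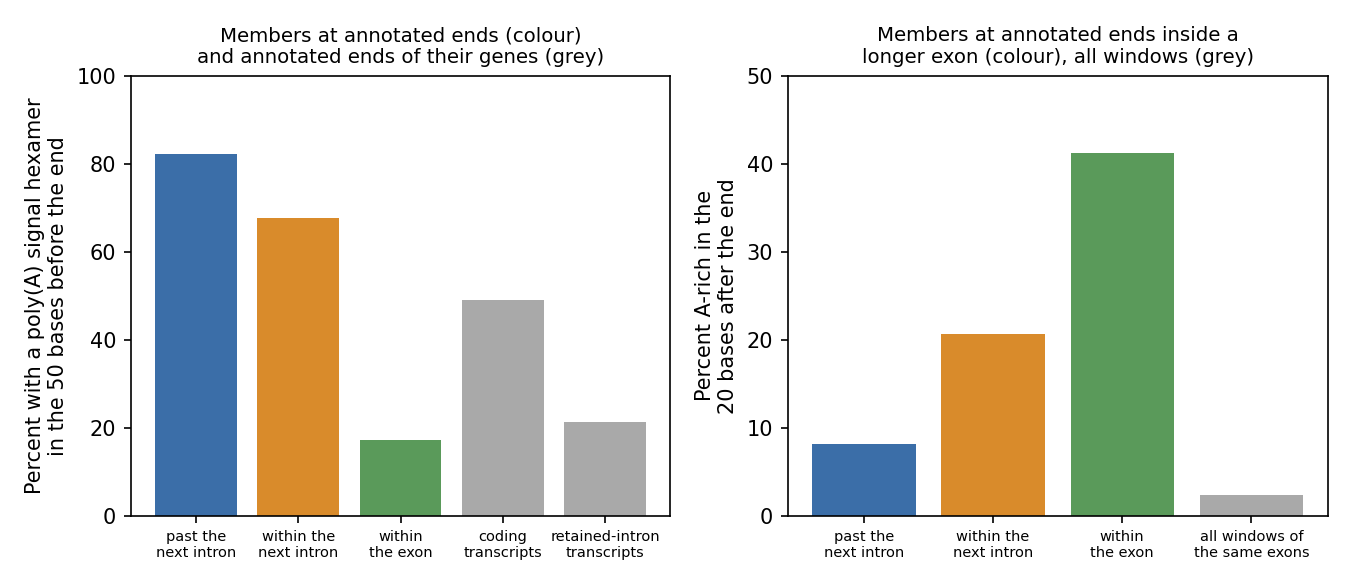
In both panels the ends carry annotated coordinates, and the ends of single reads were not analysed. Left, percent of prefix models at annotated ends (coloured bars, by arrangement, counted by chain) with AATAAA or ATTAAA in the 50 bases before the end, beside all annotated ends of the same genes (grey bars, counted once per position). Right, percent of prefix models at annotated ends inside a longer exon with an A-rich stretch in the 20 bases after the end, beside all windows of the same exons; the hexamer share is 82.2% past the next intron and 17.1% within the exon, and the A-rich share is 8.08% and 41.3%.

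The ends of shared chains mostly recurred. Both libraries placed the end within 20 bases for 527 of 675 shared chains (78.1%), and at the same base for 442. When both ends were annotated positions, 361 of 392 (92.1%) lay within 20 bases. Deposited ends there carry the annotated coordinate, so this share does not measure how well the ends of reads agree. Of the 127 chains whose ends lay at no annotated end and no exon end, 86 (67.7%) did, 50 at the same base, with a median difference of 3 bases. Within-exon models recurred within 20 bases in 109 of 126 cases, within-intron models in 139 of 187 and those past the intron in 183 of 227. Each of these counts includes ends at annotated positions, and many within-exon ends lie at an exon's last base, a coordinate both libraries share.

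Between the libraries, 4 of the 147 prefix chains with 10 or more reads differed in level at an adjusted p under 0.05 (exact binomial test with Benjamini-Hochberg adjustment over 12898 spliced chains). That is 2.72%, against 7.30% of all spliced chains tested, and 17 of the 147 were under 0.05 before adjustment. Of the 147 prefix chains, 11 had 50 or more reads. Chains with more reads reach a call more easily, and the shares called were not compared at equal depth. With the limit at 20 reads 2 were called, and with all chains of any read 0. The Ddx5 model, from a gene for an RNA helicase, had 12 reads in replicate 1 and 0 in replicate 2, at least 4.08-fold higher in replicate 1 when 3 reads stand for 0 (lower limit of the 95% exact interval of the ratio 2.84; adjusted p = 0.00546, exact binomial test). The Srsf2 model was 2.44-fold higher in replicate 1 (95% exact interval 1.38 to 4.49; adjusted p = 0.0214). The Sec62 model was 1.67-fold higher in replicate 2 (1.20 to 2.33; adjusted p = 0.0272). The Fdx1 model, from the gene for the ferredoxin that feeds electrons to mitochondrial steroid hydroxylases, had 12 reads and 1 read, a ratio of 12.3 with an interval of 1.81 to 524 (adjusted p = 0.0276), and ended past the gene's last annotated end, by 279 bases in replicate 1. Each is a comparison of 1 library with 1 other, and in bulk tissue fewer cells of a type and less RNA per cell cannot be told apart.

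**Figure D5:**
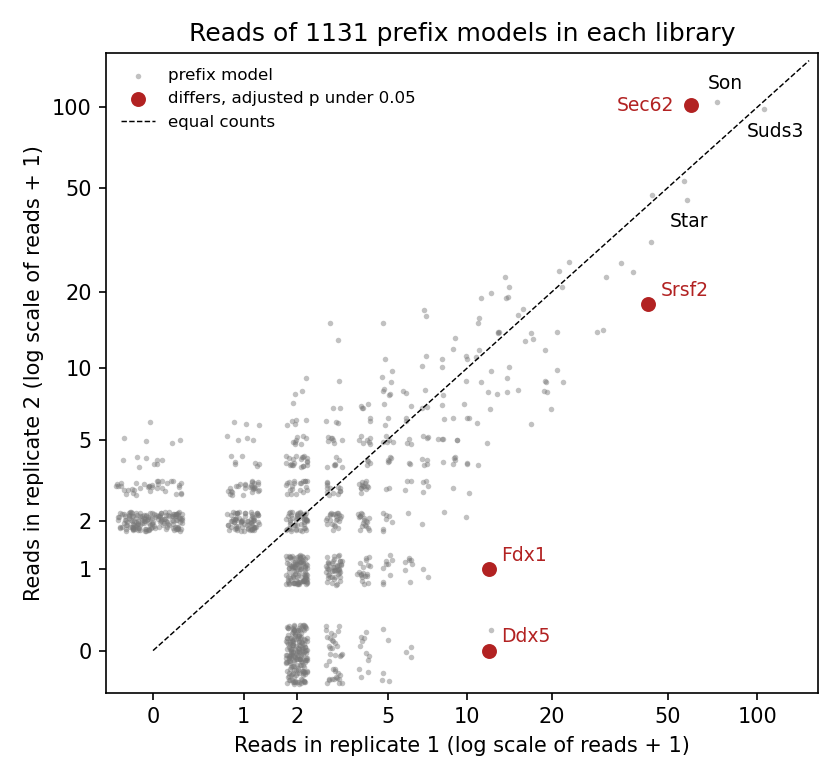
Reads of 1131 prefix models in replicate 1 and replicate 2 on log scales of reads + 1, with small random shifts so that equal counts are visible. The dashed line marks equal counts, and the 4 models that differed at an adjusted p under 0.05 are red: Sec62 above the line, and Srsf2, Fdx1 and Ddx5 below it.

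These calls depended on the scaling. The median log2 ratio (replicate 2 against replicate 1) over all chains tested was -0.19 with total-read scaling and 0.02 with TMM (trimmed mean of M-values) scaling, and 46.4% of the 942 calls were higher in replicate 2, against 79.9% of 826 calls. The median over the 147 prefix chains was -0.17 with total-read scaling. With TMM the Srsf2 (adjusted p = 0.0886, log2 ratio -1.05 against -1.26) and Fdx1 (0.0610, -2.88 against -3.09) models no longer passed, Sec62 (0.00141) and Ddx5 (0.0125) did, and Son (73 and 105 reads, adjusted p = 0.0221, exact binomial test) passed in addition. The 4 called models kept their direction with TMM. As a share of their gene's spliced reads, 0 of 144 prefix chains differed (Fisher's exact test with Benjamini-Hochberg adjustment; 7 under 0.05 before adjustment), against 0.167% of 12561 chains tested. The smallest adjusted p of the models named above was that of Ddx5, 0.158.

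Prefix models were found in 901 of the 15318 annotated genes with spliced reads (5.88%). Of 24 genes of steroid synthesis and its control, 12 had prefix models, 33 of the 1131 in all, with 250 and 232 reads or 0.669% and 0.626% of the spliced reads of these genes. The 24 genes held 37388 and 37046 spliced reads. A prefix model needs 2 reads, which genes with many reads reach more easily. The share of genes with a model was not compared at equal depth, here or for the lists below. Of their 14 chains tested, 1 differed in level, the Fdx1 model. Cyp11a1, the enzyme that cleaves the cholesterol side chain, had 7 prefix models with 37 and 49 reads, 0.555% and 0.757% of its spliced reads, 5 of them past the next intron. Its leading model had 7 of 9 exons, 14 and 23 reads, and ran unspliced through both remaining introns to the gene's last end. Star had 6 models (68 and 62 reads, 1.54% and 1.54%), Cyp11b1, the 11-beta-hydroxylase, had 4 (15 and 14 reads), and Mrap, the accessory protein of the ACTH receptor, had 2 (19 and 14 reads, 4.06% and 2.49%). Cyp11b2, the aldosterone synthase, had 2 models with 8 and 7 reads, 2.57% and 3.10% of its spliced reads. The leading models of Cyp11b1 (13 and 8 reads) and Cyp11b2 (8 and 5 reads) ended past their gene's most distal annotated end. The other models of both genes ended inside an annotated exon, before that end.

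Genes of the medulla had a model each at most. Of 25 chromaffin cell genes, 4 had 1 prefix model each, with 9 and 18 reads in all (0.0869% and 0.180% of spliced reads), and 0 of the 1 tested differed. The Pnmt model, from the gene for the enzyme that makes adrenaline, had 5 and 10 reads and ran unspliced through a 108-base intron to the gene's end. The granin gene Chga had a model with 2 and 3 reads that crossed its last intron, and Chgb had one with 2 and 3 reads that ended within an exon. The Th model, from the gene for the first enzyme of catecholamine synthesis, had 0 and 2 reads.

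Among lipid genes, Plin1, a coat protein of lipid droplets, had a large share: 5 prefix models held 56 and 46 of 291 and 269 spliced reads (19.2% and 17.1%). Of these Plin1 models, 3 ended at 79723205 on chromosome 7 in replicate 1 and at 79723251 in replicate 2, positions 46 bases apart. Fabp4, a fatty acid binding protein, had 3 models with 11 and 6 reads. Of 12 fat cell genes, only Fabp4 and Plin1 had prefix models, and 0 of 4 chains tested differed.

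The remaining lists held few models. Of 16 genes of mitochondrial respiration 4 had 1 model each (Atp5c1, Cox5a, Cyc1 and Uqcrc1, 14 and 11 reads in all), and all 4 named models ran past their last intron. Of 27 genes of 3′ end processing, Cstf1 (3 and 3 reads), Papola (4 and 1) and Rbbp6 (2 and 2) had 1 each. Rbbp6 was also the only gene with a prefix model among 10 genes listed for known intronic polyadenylation: its model ended 1385 bases into an intron, at the end of the annotated coding transcript Rbbp6-203. The erythroid genes Hba-a1 (1 and 5 reads) and Hba-a2 (4 and 3) had 1 model each that kept the last intron of 134 bases, and their reads may be split between near-identical copies.

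Liver genes set the libraries apart. Of 20 liver genes 4 had prefix models (Apoa1, Cps1, Serpina1a and Trf), 6 in all, with 0 reads in replicate 1 and 13 in replicate 2. All 6 passed the read limit in replicate 2 only, where the liver genes had more reads. Their counts are therefore no measure of a difference in prefix models between the libraries. The 5 liver markers, all detected, summed to 631 CPM (reads per 1000000) in replicate 1 and 13221 CPM in replicate 2, while spliced reads of the 20 listed genes numbered 1265 and 22833. Adrenal cortex markers (34662 and 34556 CPM, 6 of 6 detected) and chromaffin markers (8172 and 7942 CPM, 5 of 5) were alike, brown fat markers summed to 9450 and 9373 CPM, red blood cell markers to 11871 and 11665 CPM, and 2 of 3 kidney markers were at 0 in both. The part of the liver signal in the other differences between the libraries was not tested.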

How the data were processed

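The authors deposited, per library, a table of read counts per transcript model, whole numbers without normalization, with exon number, length and class per the file headers, and an annotation file with exon coordinates. The annotation file names TALON as its source; build (mm10) and annotation (GENCODE M21) are named in the deposited description. For the aligner, versions, filters and library priming, nothing is given in the sources used here. Models on spike-in sequences (17018 and 18103 reads) were removed, leaving 964679 and 984958 reads, of which 85.0% and 81.3% were spliced.

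Models were matched between libraries by intron chain. A parent was an annotated transcript, or else a model of the same library, whose first introns equal all introns of the prefix model; ends were placed against the M21 transcripts of the gene (within 50 bases for an annotated end). Where the libraries differed in the end, that of the library with more reads was used, among libraries that listed the chain as a prefix model with at least 2 reads. Chains with 10 or more reads over both libraries were tested in level (two-sided exact binomial test against total reads) and in share of the gene's spliced reads (two-sided Fisher's exact test), each over all spliced chains with Benjamini-Hochberg adjustment at 0.05 (Python 3.11.15, scipy 1.17.1). TMM factors came from edgeR 4.0.16 (R 4.3.3). Both tests were tested on simulated data with counting error only and with changes set in chains of 50 or more reads. Such data cannot show how the tests do with a spread between libraries or with changes in chains of fewer reads. Reads carry no molecular identifiers in these tables. Median log2 ratios add 0.5 reads to each library.

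Named models followed a rule: the 15 with the most reads, the 6 with the highest share of their gene (20 or more spliced reads in each library), the 5 lacking the most exons (10 or more reads), up to 5 called models per test and up to 4 per gene list. The models, lists and rules were chosen with earlier results of these data known. Planned counts of A-rich stretches and poly(A) signals at all ends need a genome and were not run. Annotated exons cover the 20 bases after only 27.6% of the ends and the 50 bases before 75.8%, so a count over all ends would be void, and the counts given are for the ends named with them. The sequence at 1 further end is not reported here.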

Additional observations from a re-analysis of the deposited data

How the results depend on the processing

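Keeping only models with 5 or more reads changed most shares: the share of spliced reads went from 0.386% to 0.216%, the percent of chains in both libraries from 59.7% to 93.8%, the percent ending in an intron from 16.9% to 7.56% and the percent at an annotated end from 57.4% to 67.6%. Matching by transcript identifier gave 0% of chains in both libraries, since identifiers of new models name their library. Leaving out a replicate gave 0.355% to 0.416% of spliced reads, 14.4% to 17.7% ending in an intron and 58.3% to 59.1% at an annotated end. With an annotated parent only (added after seeing the data), 56.2% ended at an annotated end. Windows of 10 and 200 bases around annotated ends changed neither share by more than the spread between the libraries. Few deposited ends lie close to an annotated end without being exactly at it, so the window had little to change. The percent of shared ends within 20 bases, 78.1%, became 73.0% with 5 bases, 74.3% with 5 or more reads in each library and 67.7% for ends at no annotated position (added after seeing the data). Chains differing in level numbered 4, 3 with TMM, 2 with 20 or more reads and 0 over all chains with any read, and 0 differed in share under each of the 3 alternatives. No paired analysis was possible because there is 1 group. Depth limits the comparison: 984 of 1131 prefix chains had fewer than 10 reads and entered no test.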
